A study of Mus musculus with 12 samples.

Results

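The genes described here encode 8 transcription factors known from helper T cell lineages and effector T cells: Tbx21, Gata3, Bcl6, Batf, Maf, Prdm1, Eomes and Epas1. They were chosen by symbol from the table of counts, where each of the 8 had a row among 26609 genes, and all 8 passed the filter on low counts with 13692 genes in all. The libraries came from regulatory T cells (Tregs), the CD4+ T cells that restrain immune responses, sorted as CD4+CD25hiCD127lo singlets from mesenteric lymph nodes of untreated SAMP/YitFC mice, an inbred line with spontaneous ileitis. By the labels, SAMP-ERb-KO mice (KO below) lack estrogen receptor beta, encoded by Esr2, globally, and SAMP-WT mice (WT below) have it, but the Esr2 counts given below go against these labels in several libraries. The study set males against females of both genotypes, with 3 libraries each titled KO female, KO male, WT female and WT male. WT and KO mice alike carry the ileitis-prone background. The sources used here give neither the age of the mice nor the deleted part of Esr2, and do not say if a library is 1 mouse, so the p-values reflect spread among libraries, which may be technical.

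Helper T cells acquire distinct programs under lineage-defining transcription factors. T-bet (Tbx21) and its T-box relative eomesodermin (Eomes) drive type 1 responses, GATA3 drives type 2 responses, and BCL6 drives the follicular program and is opposed by Blimp-1, the repressor encoded by Prdm1. Tregs use the same factors: Blimp-1, BATF and c-MAF are known from effector Tregs of the gut and other tissues, and GATA3 from Tregs at barrier surfaces. Epas1 encodes HIF-2 alpha, an oxygen-regulated factor that pairs with ARNT.

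Prdm1 was the member that passed the test between KO-labelled and WT-labelled libraries, and its start region is shown for that reason. The start regions of Batf and Bcl6 are shown beside it because they hold motifs of factors described here. The windows are 300 bases of RefSeq sequence (build GRCm38.p6), read 5′ to 3′ on the gene's strand, with matches to the motifs searched in capitals. Windows were matched by symbol for 6 of the 8 members, the others being Maf and Epas1. The Prdm1 and Gata3 windows lie inside these genes as the GENCODE M21 annotation places them, away from their 5′ ends at 44528501 and 9890034.
Prdm1, chr10:44458699-44458998, minus strand: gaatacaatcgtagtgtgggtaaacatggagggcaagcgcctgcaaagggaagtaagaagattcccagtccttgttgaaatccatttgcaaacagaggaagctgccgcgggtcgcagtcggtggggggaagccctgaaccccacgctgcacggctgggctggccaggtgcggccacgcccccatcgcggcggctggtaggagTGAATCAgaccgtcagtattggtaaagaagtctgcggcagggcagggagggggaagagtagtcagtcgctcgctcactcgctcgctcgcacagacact
Batf, chr12:85686470-85686769, plus strand: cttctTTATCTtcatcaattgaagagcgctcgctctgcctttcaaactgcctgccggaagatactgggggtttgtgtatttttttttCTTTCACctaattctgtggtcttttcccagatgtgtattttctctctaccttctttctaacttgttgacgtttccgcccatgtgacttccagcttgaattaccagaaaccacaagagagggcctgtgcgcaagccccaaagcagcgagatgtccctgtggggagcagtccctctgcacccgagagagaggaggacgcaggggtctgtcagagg
Bcl6, chr16:23981234-23981533, minus strand, the downstream of 2 listed starts: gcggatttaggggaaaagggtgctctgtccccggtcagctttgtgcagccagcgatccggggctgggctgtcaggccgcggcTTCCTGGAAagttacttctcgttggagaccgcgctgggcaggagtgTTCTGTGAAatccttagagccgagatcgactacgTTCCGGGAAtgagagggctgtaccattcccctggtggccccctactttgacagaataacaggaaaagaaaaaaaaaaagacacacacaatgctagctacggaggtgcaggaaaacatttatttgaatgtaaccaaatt

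The motifs searched on both strands were TGANTCA for AP-1 factors such as BATF, AGATAA for GATA factors, TTCNNNGAA for the palindrome that BCL6 shares with STAT factors, GTGAAAG for Blimp-1, GTGTGA for T-box factors, TGCTGA for Maf factors and ACGTG for hypoxia-inducible factors. The Prdm1 window held TGANTCA at position 203, counted from 1 at the 5′ end. That motif stands in 7.81% of all 32851 windows. The Batf window held AGATAA on the opposite strand at position 6 and GTGAAAG on the opposite strand at position 88, which stand in 11.2% and 4.24% of all windows. The Bcl6 window shown held TTCNNNGAA at positions 83, 129 and 163, against 8.3% of windows with at least 1 such match. The upstream Bcl6 window held TTCNNNGAA at position 133 and ACGTG on both strands at positions 191 and 192, which overlap, and the Gata3 window held TGCTGA at position 161. TGCTGA stands in 19.5%, ACGTG in 19.6% and GTGTGA in 14.5% of all windows. The Tbx21 and Eomes windows held none of the 7 motifs. These are matches of letters, not sites of binding, and no match overlapped another in the windows shown.

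Counts per library summed to between 10.2 M and 16.7 M. Foxp3, the lineage factor of Tregs, averaged 740 ± 143 CPM (counts scaled to a common library size) in KO-labelled and 770 ± 109 CPM in WT-labelled libraries (SD, n = 6 each), and Cd4 and Il2ra were also present in every library. Xist and 4 Y-linked genes went against the title in 4 libraries, which were KO female 1, KO male 1, KO male 2 and WT female 2. Esr2 lay between 8.05 and 12.3 CPM in 4 KO-labelled libraries (KO female 1, 2 and 3 and KO male 3) and 2 WT-labelled libraries (WT female 2 and 3). It lay at or below 0.895 CPM in the other 2 KO-labelled (KO male 1 and 2) and 4 WT-labelled libraries. All groups and directions below are those of the labels. Bcl6, Maf, Eomes and Epas1 each overlap 1 other annotated gene and Gata3 overlaps 3, whose reads cannot be told apart from theirs without strand.

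Per kilobase of merged exons (GENCODE M21), the scale on which genes can be set side by side, Batf was highest and Epas1 lowest. The levels over 12 libraries were 89.8 ± 17.5 CPM per kilobase for Batf, 40.6 ± 6.05 for Gata3, 13.8 ± 5.20 for Prdm1, 10.3 ± 2.71 for Tbx21, 6.13 ± 2.39 for Maf, 3.43 ± 0.916 for Bcl6, 2.49 ± 1.04 for Eomes and 0.894 ± 0.317 for Epas1 (mean ± SD). Batf stood apart from Gata3, and Gata3 from Prdm1, in every library. From Prdm1 downward, each neighbouring pair in that order overlapped in range over the libraries.

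**Figure D1:**
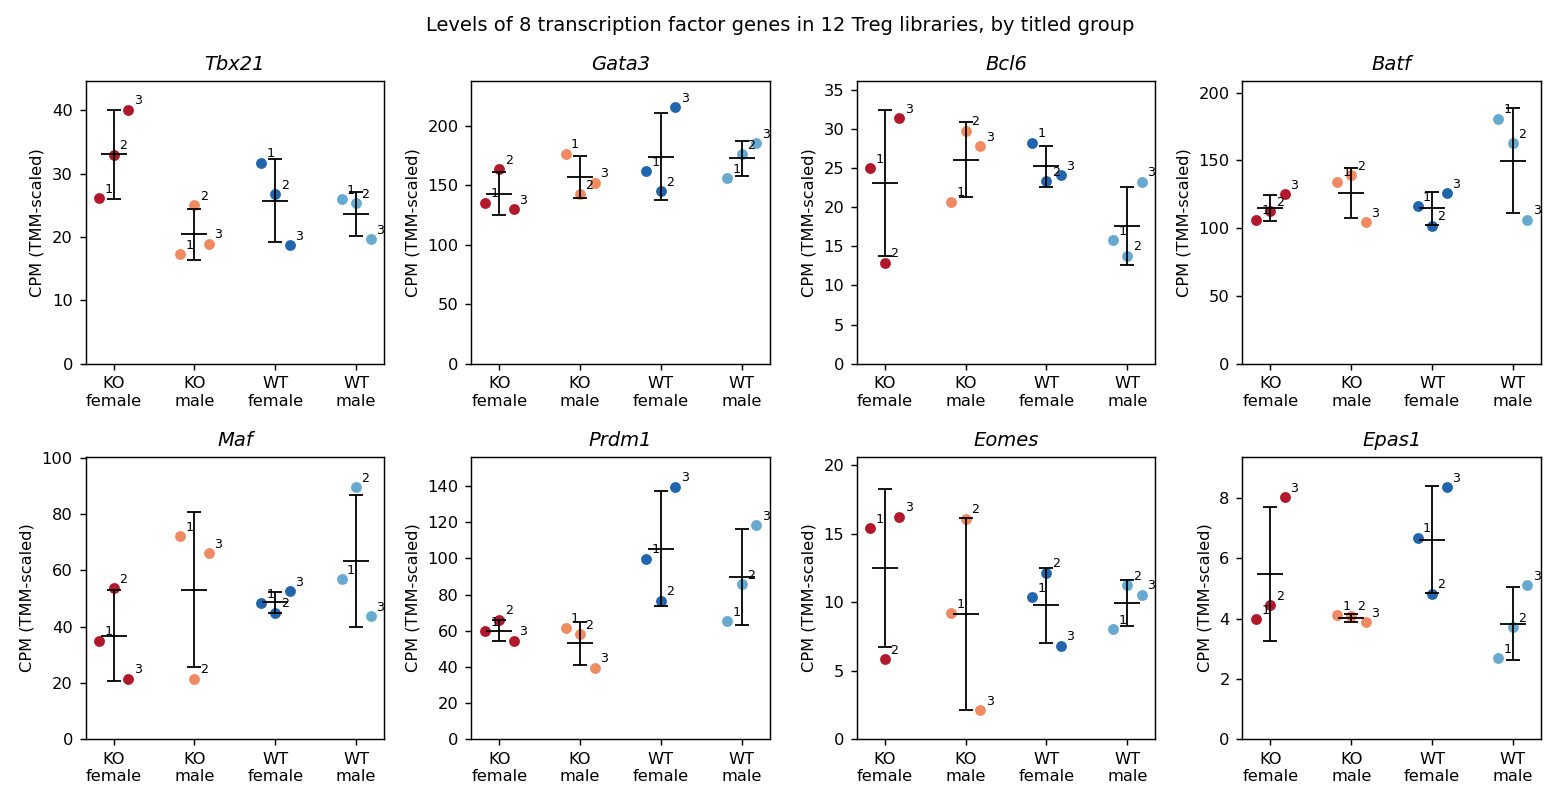
CPM (vertical axis, linear, from 0) of each of the 8 genes in the 3 libraries of each titled group (horizontal axis). Points are libraries with their number, and black bars are mean ± SD (n = 3). Prdm1 lies at 39.7 to 66.0 CPM in KO-labelled and 65.2 to 140 CPM in WT-labelled libraries, while the other 7 genes overlap more widely.

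Prdm1 (chromosome 10, 44437177 to 44528501, GRCm38, minus strand) encodes Blimp-1, a zinc finger repressor that directs plasma cell differentiation in B cells and Il10 expression in effector Tregs. Its levels were 59.9, 66.0 and 54.5 CPM in KO females and 61.8, 58.1 and 39.7 CPM in KO males, against 99.9, 76.7 and 140 CPM in WT females and 65.2, 85.8 and 118 CPM in WT males. Each KO-labelled library lay below every WT-labelled library of its titled sex, and over both sexes KO female 2 overlapped WT male 1 by less than 1 CPM. By mean the order was WT female, WT male, KO female and KO male, and each neighbouring pair overlapped. Means were 56.7 ± 9.15 CPM in KO and 97.6 ± 27.7 CPM in WT (SD, n = 6 each). Averaged over the sexes, Prdm1 fell by 0.78 on the log2 scale (SE 0.18), a ratio of 0.582, with an adjusted p of 0.0424 by edgeR's quasi-likelihood test.

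The estimates were close in size in both titled sexes, and neither passed alone. The log2 fold change was -0.81 in females (SE 0.25, unadjusted p = 0.00562, adjusted p = 0.474 by edgeR) and -0.75 in males (SE 0.25, unadjusted p = 0.00899, adjusted p = 0.201). KO-labelled libraries lay below all WT-labelled libraries in 11.8% of all genes in females and in 7.45% in males, so separation in that direction was common. The interaction was -0.06 (SE 0.35, adjusted p = 0.988). Prdm1 stayed lower in KO-labelled libraries in all 7 processing alternatives (-1.10 to -0.74) and in all 12 fits that left out a library (-0.88 to -0.65), but the call was lost in 3 of the 7 and 8 of the 12. Among these was the fit without the 4 libraries against their titled sex (-1.10, SE 0.226). The KO-labelled libraries left in it, KO female 2, KO female 3 and KO male 3, all had Esr2 at 8.05 CPM or more. Of its WT-labelled libraries, WT female 3 did too. The call was also lost with both libraries titled WT male 2 summed (adjusted p = 0.0868 by edgeR). The same held without KO female 1 or 3, KO male 3, WT female 1, 2 or 3, or WT male 2 or 3 (0.0536 to 0.128).

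**Figure D2:**
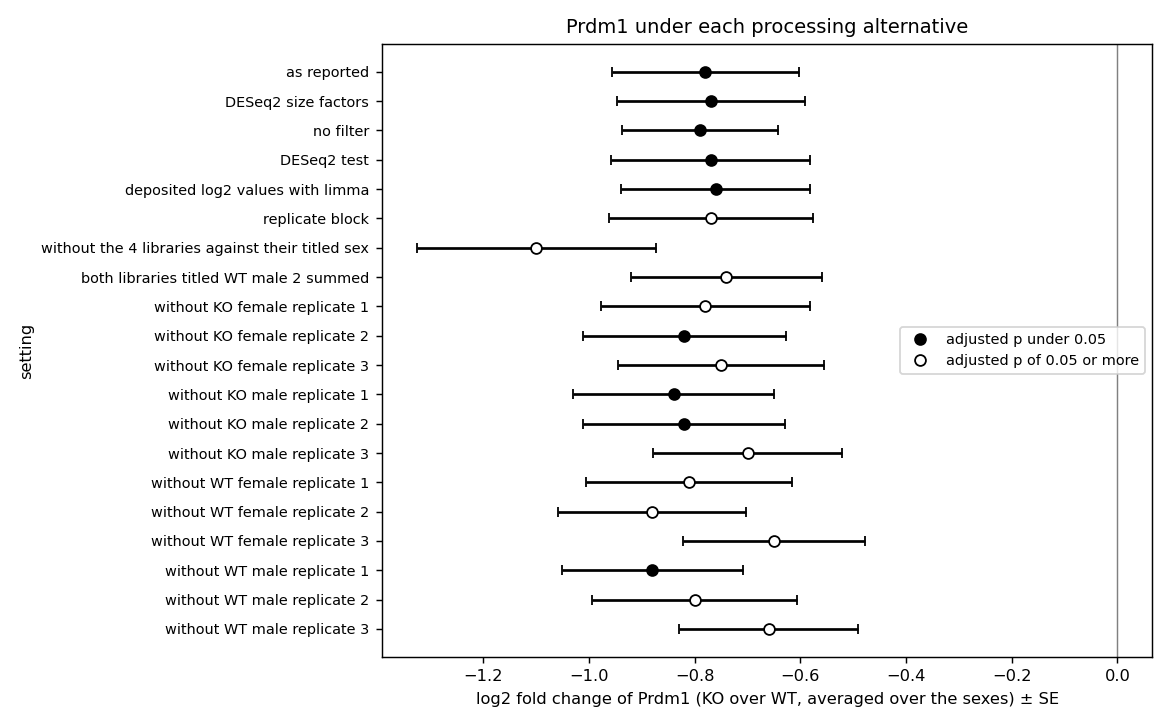
Log2 fold change of Prdm1, KO-labelled over WT-labelled libraries averaged over the sexes (horizontal axis, bars are SE), under each processing alternative (rows). Filled points have an adjusted p under 0.05. Every point lies between -1.10 and -0.65, and 8 of the 12 fits that leave out a library are open.

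Among all 13692 genes, 1.5% passed in this average, 0.606% as higher and 0.898% as lower, and Prdm1 was 1 of 8 members. The other 7 did not pass with edgeR. Prdm1 was the 1 member of 8 at an unadjusted p under 0.05, against 15.9% of all genes, and the 1 member called by DESeq2 and by limma on the deposited log2 values. The median log2 fold change of the 8 was -0.11, against 0.02 over all genes tested, with 3 members positive and 5 negative.

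Markers of other cell types moved with the same labels. The 12 B cell genes summed to 789 to 1859 CPM in KO-labelled and 260.0 to 933 CPM in WT-labelled libraries, with 9 of 12 higher by edgeR. Prdm1 is known to be abundant in plasma cells. Their 6 marker genes in the table summed to 511 to 809 CPM in KO and 435 to 518 CPM in WT. Of 5 tested genes, edgeR called 1 higher, 2010001M09Rik (log2 fold change 4.35, SE 0.67, adjusted p = 0.0131). Its levels ran from 3.10 to 20.4 CPM over the KO-labelled libraries, while no WT-labelled library exceeded 2.54 CPM. The sums thus came mostly from other genes of the list and do not show the change in 2010001M09Rik. By library, the B cell sums were 789, 1169 and 1859 CPM in KO females and 930, 806 and 1495 CPM in KO males. They were 933, 648 and 289 CPM in WT females and 310, 292 and 260.0 CPM in WT males. The part of B cells and plasma cells in the Prdm1 difference was not tested.

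The 8 neutrophil and mast cell genes summed to 23.2 to 50.4 CPM in KO and 17.3 to 34.0 CPM in WT, with 4 of 7 tested higher by edgeR. These sums overlapped, but the median log2 fold change of the 7 was 5.56, against 0.02 over all genes. The 4 called genes were near the floor, with 0 to 5 counts in each WT-labelled library and means of 0.944 to 3.83 CPM in KO. With limma on the deposited log2 values, 2 passed (S100a9 and Ngp). The 9 macrophage and monocyte genes in the table summed to 194.5 to 448 CPM in KO and 29.9 to 381 CPM in WT, with all 9 positive, 7 at an unadjusted p under 0.05, 1 higher by edgeR (Ly6c2) and 5 higher by DESeq2. Further lists held no call by edgeR: dendritic cell genes at 13.1 to 24.3 CPM in KO and 5.24 to 26.3 CPM in WT, innate lymphoid genes at 430 to 551 CPM in KO and 428 to 697 CPM in WT, Treg identity genes at 4189 to 5064 CPM in KO and 3582 to 4678 CPM in WT, and conventional CD4 T cell genes at 882 to 1884 CPM in KO and 985 to 1187 CPM in WT. Of these 4 lists DESeq2 called 1 dendritic cell and 1 Treg identity gene. No marker in the table was at 0 in every library. The part of other cells in the Prdm1 difference was not tested. In bulk libraries, fewer cells that express a gene and less RNA per cell cannot be told apart.

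**Figure D3:**
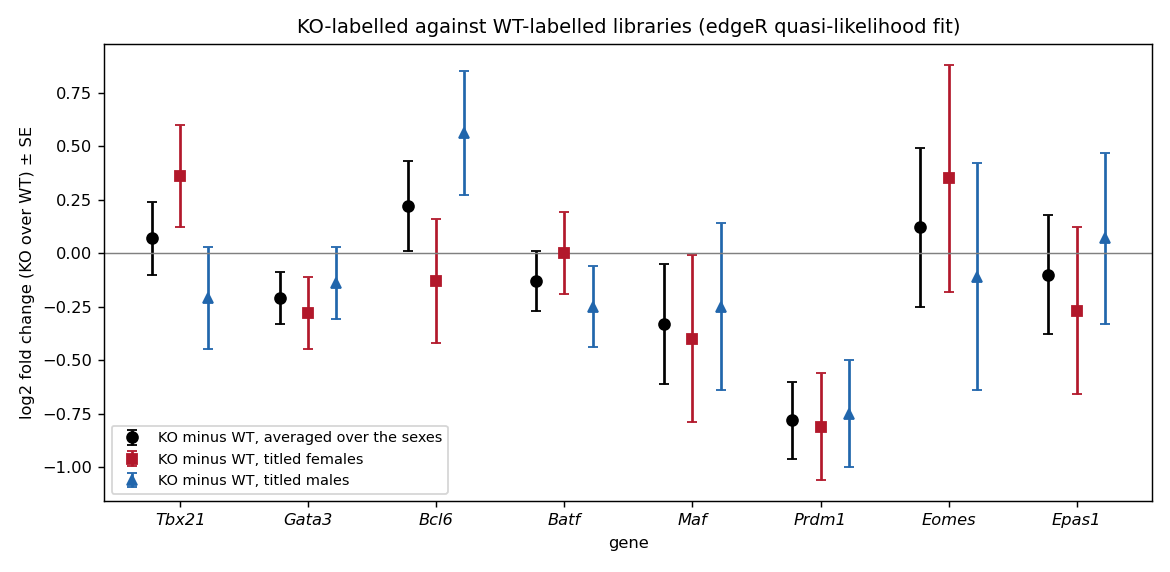
Log2 fold changes (vertical axis, KO-labelled over WT-labelled, bars are SE) of the 8 genes (horizontal axis) averaged over the sexes, in titled females and in titled males. Prdm1 lies at -0.78, -0.81 and -0.75, while Tbx21, Bcl6, Eomes and Epas1 have estimates on either side of 0.

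Neither T-box factor, Tbx21 or Eomes, passed between the KO and WT labels. Tbx21 (chromosome 11, 97098071 to 97115331), which encodes T-bet, had 26.1, 33.0 and 40.1 CPM in KO females and 17.3, 25.0 and 18.9 CPM in KO males, against 31.8, 26.8 and 18.7 CPM in WT females and 25.9, 25.4 and 19.6 CPM in WT males. By mean the order was KO female, WT female, WT male and KO male, and each neighbouring pair overlapped, while KO females lay above both male groups. Between genotypes, the log2 fold change of KO over WT was 0.07 (SE 0.17), 0.36 in females (SE 0.24) and -0.21 in males (SE 0.24), with adjusted p between 0.737 and 0.876 by edgeR.

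Between titled sexes, Tbx21 was the member with the smallest unadjusted p. Within KO, each library labelled female lay above each labelled male, as in 3.64% of all genes, and means were 33.1 ± 7.01 CPM in KO females and 20.4 ± 4.06 CPM in KO males (SD, n = 3 each). The log2 fold change was 0.69 (SE 0.24, unadjusted p = 0.0123, adjusted p = 0.849 by edgeR). It did not pass, and in KO female 1, KO male 1 and KO male 2 the sex-linked transcripts went against the title. The interaction for Tbx21 was 0.57 (SE 0.34, adjusted p = 0.900).

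Eomes (chromosome 9, 118478212 to 118486132), known from memory CD8 T cells and NK cells, varied more between libraries than any other member. It had 15.4, 5.82 and 16.2 CPM in KO females and 9.21, 16.1 and 2.14 CPM in KO males, against 10.4, 12.2 and 6.81 CPM in WT females and 8.02, 11.2 and 10.5 CPM in WT males. Its highest and lowest levels, 7.60-fold apart, were both in KO-labelled libraries, the groups, by mean KO female, WT male, WT female and KO male, overlapped, and the lowest rested on 22 counts in KO male 3. KO over WT gave a log2 fold change of 0.12 (SE 0.37, adjusted p = 0.909 by edgeR), and it was 0.35 in females (SE 0.53) and -0.11 in males (SE 0.53, and 0.35 without KO male 3). The average was -0.95 without the 4 libraries against their titled sex, a fit in which KO male 3 is the only KO male. It was -0.15 with limma on the deposited log2 values and -0.22 without KO male 2. The 9 genes of NK and CD8 T cells summed to 63.4 to 128 CPM in KO-labelled and 46.1 to 79.2 CPM in WT-labelled libraries. Of 8 tested, none was called by edgeR, 4 had an unadjusted p under 0.05, against 15.9% of all genes, and 2 were called by DESeq2 (Cd8b1 and Tyrobp). Klra8 of that list was at 0 in all WT-labelled libraries. The conventional CD4 T cell genes summed to 1638, 1587 and 1884 CPM in KO female 2, KO male 1 and KO male 3, the KO-labelled libraries lowest in Eomes. They summed to 1033, 992.5 and 882 CPM in KO female 1, KO female 3 and KO male 2, and to 985 to 1187 CPM in WT-labelled libraries. Satb1 of the conventional CD4 list ran the other way. Its levels were 383, 380 and 354 CPM in KO female 2, KO male 1 and KO male 3. In KO female 1, KO female 3 and KO male 2 they were 486, 530 and 434 CPM. Cd40lg of that list overlapped between these sets of libraries. The part of any of these cells in the Eomes levels was not tested.

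Gata3 (chromosome 2, 9857078 to 9890034) was the steadiest member. Its levels were 135, 164 and 130 CPM in KO females and 176, 142 and 152 CPM in KO males, against 162, 145 and 215 CPM in WT females and 156, 176 and 185 CPM in WT males. By mean the order was WT female, WT male, KO male and KO female, all overlapping, with WT female 3 above all others. Its coefficient of variation over 12 libraries was 14.9%, against a median of 22.7% over the 12268 tested genes that averaged at least 1 CPM. For KO over WT the log2 fold change was -0.21 (SE 0.12, adjusted p = 0.429 by edgeR), -0.28 in females (SE 0.17) and -0.14 in males (SE 0.17). GENCODE places 3 genes across Gata3, of which 2 are in the table, 4930412O13Rik and 9230102O04Rik, at 0.185 and 0.176 CPM. Reads of overlapping genes cannot be told apart without strand, so these levels do not show their share in the Gata3 counts.

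Bcl6 (chromosome 16, 23965052 to 23988852), the factor of follicular helper and follicular regulatory T cells, overlapped between KO and WT. It had 25.0, 12.9 and 31.4 CPM in KO females and 20.7, 29.8 and 27.8 CPM in KO males, against 28.2, 23.3 and 24.1 CPM in WT females and 15.8, 13.8 and 23.3 CPM in WT males. KO female 2 was lowest and KO female 3 highest of all 12, so the KO females alone spanned the whole range. By mean the order was KO male, WT female, KO female and WT male, and the neighbours overlapped. The ratio of KO over WT was 0.22 on the log2 scale (SE 0.21, adjusted p = 0.653 by edgeR; 0.07 to 0.36 with a library left out), -0.13 in females (SE 0.29) and 0.56 in males (SE 0.29, adjusted p = 0.407). In females the sign rested on KO female 2, without which it was 0.15.

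In WT, Bcl6 averaged 25.2 ± 2.63 CPM in females and 17.6 ± 4.99 CPM in males (SD, n = 3 each), a log2 fold change of 0.52 (SE 0.29, adjusted p = 0.728 by edgeR). WT females lay above all WT males, as in 7.55% of all genes, and the libraries nearest to each other, WT female 2 and WT male 3, differed by less than 1 CPM. The 12 B cell genes summed to 933, 648 and 289 CPM in WT females, against 310, 292 and 260.0 CPM in WT males. All 12 were positive for females over males in WT (median log2 fold change 2.94), edgeR called 0 and DESeq2 5, 11 had an unadjusted p under 0.05, and their part in the Bcl6 difference was not tested. The interaction for Bcl6 was -0.69 (SE 0.42, adjusted p = 0.900). The 5 germinal centre B cell genes found in the table summed to 99.7 to 157 CPM in KO and 90.6 to 123 CPM in WT, and none of 3 tested was called by edgeR or DESeq2, with 1 at an unadjusted p under 0.05. Their part in the Bcl6 levels was not tested.

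Batf (chromosome 12, 85686669 to 85709087), a basic leucine zipper factor that binds DNA with JUN and IRF4 and is needed for effector Tregs in tissues, overlapped between the labelled genotypes. It had 106, 113 and 125 CPM in KO females and 134, 139 and 105 CPM in KO males, against 116, 102 and 126 CPM in WT females and 181, 163 and 106 CPM in WT males. WT male 1 and WT male 2 stood above the other 10 libraries, which lay between 102 and 139 CPM, and the groups, by mean WT male, KO male, WT female and KO female, overlapped. KO over WT was -0.13 on the log2 scale (SE 0.14, adjusted p = 0.699 by edgeR), 0.00 in females (SE 0.19) and -0.25 in males (SE 0.19). Within WT, it was -0.39 for females over males (SE 0.19, adjusted p = 0.718).

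Maf (chromosome 8, 115682942 to 115707794), which encodes c-MAF, a regulator of Il10 and of Tregs specific for gut bacteria, spread widely within the KO label. It had 35.1, 53.7 and 21.5 CPM in KO females and 72.1, 21.5 and 66.0 CPM in KO males, against 48.3, 45.0 and 52.6 CPM in WT females and 56.8, 89.4 and 43.7 CPM in WT males. The 3 lowest libraries, KO male 2, KO female 3 and KO female 1, were all KO-labelled and lay below every WT-labelled library, while the other 3 KO-labelled libraries lay within the WT range. Group means ran from WT male through KO male and WT female to KO female, with overlap between neighbours. Averaged over the sexes, KO over WT was -0.33 on the log2 scale (SE 0.28, adjusted p = 0.608 by edgeR; -0.52 to -0.14 with a library left out), -0.40 in females (SE 0.39) and -0.25 in males (SE 0.39). In males it was 0.04 without the 4 libraries against their titled sex, 0.13 without KO male 2 and 0.08 without WT male 2. Within KO, females over males gave -0.53 (SE 0.39, adjusted p = 0.854).

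Macrophages also express Maf, and their marker sums are those given with Prdm1, with 1 of 9 genes higher by edgeR and 5 by DESeq2. By library, these sums were 257, 242 and 448 CPM in KO females and 194.5, 375 and 379 CPM in KO males. They were 381, 358 and 54.3 CPM in WT females and 67.3, 52.1 and 29.9 CPM in WT males. The conventional CD4 T cell genes summed to 1638, 1587 and 1884 CPM in KO female 2, KO male 1 and KO male 3, the KO-labelled libraries highest in Maf. They summed to 1033, 992.5 and 882 CPM in KO female 1, KO female 3 and KO male 2, and to 985 to 1187 CPM in WT-labelled libraries. Satb1 of the conventional CD4 list ran the other way. Its levels were 383, 380 and 354 CPM in KO female 2, KO male 1 and KO male 3. In KO female 1, KO female 3 and KO male 2 they were 486, 530 and 434 CPM. Cd40lg of that list overlapped between these sets of libraries. The part of macrophages or conventional CD4 T cells in the Maf levels was not tested.

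Epas1 (chromosome 17, 86753700 to 86833410) was the lowest member, with 40 to 108 counts per library. Its levels were 3.98, 4.45 and 8.03 CPM in KO females and 4.12, 4.11 and 3.88 CPM in KO males, against 6.69, 4.83 and 8.36 CPM in WT females and 2.69, 3.72 and 5.11 CPM in WT males. WT female 3 and KO female 3 were highest, and the KO males were the closest together. By mean the order was WT female, KO female, KO male and WT male, with overlap between all neighbours. The log2 fold change of KO over WT was -0.10 (SE 0.28, adjusted p = 0.897 by edgeR; 0.03 without WT male 3), -0.27 in females (SE 0.39) and 0.07 in males (SE 0.40; -0.14 without WT male 1). In WT, females over males gave 0.78 (SE 0.39, adjusted p = 0.718). Counting error alone gives a coefficient of variation of 12.2% at the mean count of Epas1, against 35.4% observed.

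Epas1 is also abundant in endothelial cells. The 10 stromal and endothelial genes summed to 129 to 189.5 CPM in KO-labelled libraries and 91.5 to 133 CPM in WT-labelled libraries, with none of 7 tested called by edgeR, 5 at an unadjusted p under 0.05 and 1 called by DESeq2 (Cxcl13). Their part in the Epas1 levels was not tested.

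No member passed in the other 5 comparisons, with edgeR, with DESeq2 or with limma on the deposited log2 values. Within females, 1 member (Prdm1) had an unadjusted p under 0.05 for KO minus WT, against 7.71% of all genes, and 0.0% of genes were called by edgeR. In males it was again 1 member (Prdm1), against 14.2% of all genes, with 0.073% called. For female minus male in KO it was 1 member (Tbx21), against 5.27% of genes, and in WT it was 0 members, against 6.52%, with 0.0% called in each. The interaction gave 0 members at that level, against 4.81% of genes and 0.0% called, and its member log2 values ran from -0.69 for Bcl6 to 0.57 for Tbx21. Among all genes DESeq2 called 22 between KO and WT females, 420 between KO and WT males, 0 between the sexes in KO, 30 between the sexes in WT, and 3 for the interaction.

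The 8 genes were compared with each other over the 12 libraries in 28 pairs, 16 with a positive and 12 with a negative Pearson r of log2 CPM. None passed after Benjamini-Hochberg adjustment over the pairs by a two-sided permutation test, and 4 had an unadjusted p under 0.05. Gata3 and Prdm1 had the highest r, 0.739 (permutation p = 0.00597, adjusted p = 0.167), with Spearman's rho of 0.748 (permutation p = 0.00721, adjusted p = 0.195). Without the 2 libraries farthest from the median of Gata3, WT female 3 and KO female 3, r was 0.549, and it was 0.77 over deviations from titled group means and 0.817 without the 4 libraries against their titled sex.

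Bcl6 and Maf had the lowest r, -0.644 (permutation p = 0.0233, adjusted p = 0.279), with rho of -0.671 (permutation p = 0.0208, adjusted p = 0.195). Without KO female 2 and WT male 2, the 2 farthest from the median of Bcl6, r was -0.603, and it was -0.735 over deviations from group means and -0.596 without the 4 libraries. Tbx21 and Gata3, the factors of type 1 and type 2 programs, gave -0.609 (permutation p = 0.0354, adjusted p = 0.279) and rho of -0.566 (permutation p = 0.0587, adjusted p = 0.253), with r of -0.443 without KO female 3 and KO male 1, -0.661 over deviations and -0.686 without the 4 libraries. Gata3 and Maf gave 0.601 (permutation p = 0.0398, adjusted p = 0.279) and rho of 0.559 (permutation p = 0.0633, adjusted p = 0.253), with 0.604 without WT female 3 and KO female 3, 0.486 over deviations and 0.485 without the 4 libraries. The antagonists Bcl6 and Prdm1 had r of -0.126 (permutation p = 0.696, adjusted p = 0.779) and rho of -0.413 (permutation p = 0.185, adjusted p = 0.468), with r of -0.162 without KO female 2 and WT male 2, -0.00319 over deviations and -0.044 without the 4 libraries.

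**Figure D4:**
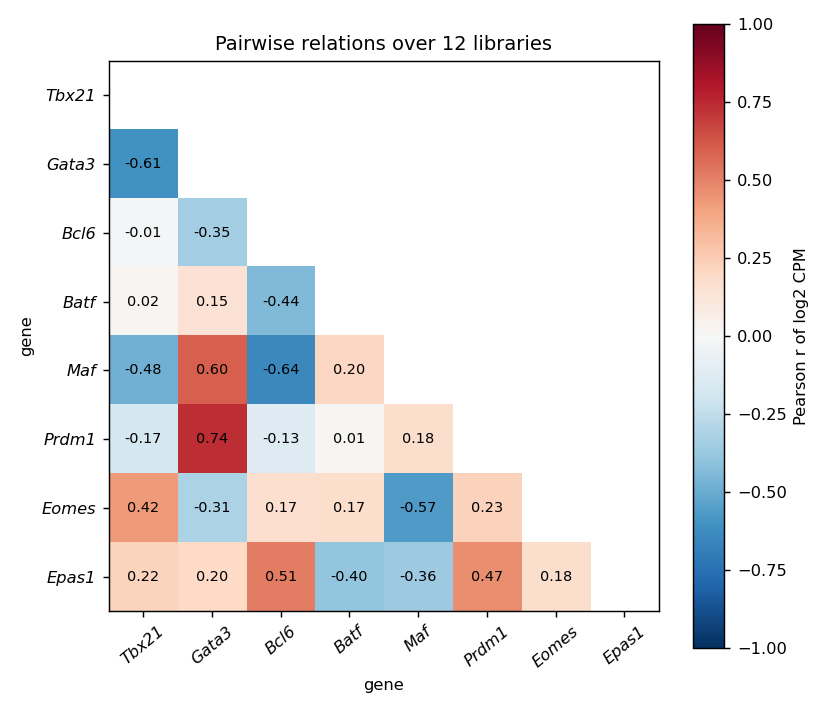
Pearson r of log2 CPM over 12 libraries for each of the 28 pairs of genes (both axes), coloured from -1 to 1. The highest is Gata3 with Prdm1 at 0.739 and the lowest Bcl6 with Maf at -0.644, and no pair passes after adjustment.

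The genes with the pattern most like each member were taken as those with the highest Pearson r of log2 CPM over the 12 libraries among 12267 genes that averaged at least 1 CPM. These r are descriptions picked as the highest of many, with no test, and libraries share depth and composition. For Prdm1 they were Creb1, a cAMP-responsive transcription factor (0.968), Ikzf3, the lymphoid zinc finger factor Aiolos (0.963), and Alkbh8 (0.944). For Maf they were LOC100861853 (0.97), Gm14966 (0.946) and Ier3ip1 (0.941), and for Eomes Rabgef1 (0.951), the glycolytic enzyme gene Pgam1 (0.946) and Lrrc42 (0.927). Bcl6 had Ppp1r10 (0.94), 2700050L05Rik (0.926) and Mapkbp1 (0.918), and Batf had the glutathione peroxidase gene Gpx1 (0.927), the respiratory chain gene Ndufs3 (0.926) and Mea1 (0.917). Tbx21 had Anxa1 (0.913), Rab32 (0.887) and Nr1h3 (0.887), Gata3 had Ube2b (0.878), Zmym5 (0.874) and Serinc1 (0.873), and Epas1 had the X-linked histone demethylase gene Kdm6a (0.876), Strn (0.848) and Cacnb1 (0.845).

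The programs around these factors were described through 10 lists of 136 distinct genes, of which 120 were tested. The lists overlap, and Lef1 and Irf4 are examples of genes in more than 1. Averaged over the sexes, 1 of them rose and 1 fell in KO-labelled libraries, or 1.67%, near the 1.5% of all genes. Their median log2 fold change was 0.01, with 63 positive and 57 negative. DESeq2 called 5 higher and 3 lower in that average, against 644 of all 13692 genes. In the other 5 comparisons none of the 120 passed with edgeR or limma, and DESeq2 called 4, Ccl5, Il6ra and Lef1 higher and Hif1a lower, all for KO minus WT in males. The marker sums of other cell types given with Prdm1 apply to these genes as well, and their part in them was not tested.

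The gene that rose was Lef1, a T cell factor known from resting and follicular T cells and a partner of BCL6 (chromosome 3, 131110471 to 131224356). Its levels were 226, 244 and 279 CPM in KO females and 349, 229 and 262 CPM in KO males, against 179, 191 and 162 CPM in WT females and 190, 180 and 151 CPM in WT males. All 6 KO-labelled libraries lay above all 6 WT-labelled libraries, as in 0.971% of all genes, and the log2 fold change was 0.59 (SE 0.12, adjusted p = 0.0314 by edgeR). It was not called without the 4 libraries against their titled sex (adjusted p = 0.0746), nor with the WT male 2 titles summed (0.0723), nor in 8 of the 12 fits that left out a library, those without KO female 1 or 3, KO male 3, WT female 1, 2 or 3, or WT male 2 or 3 (0.0510 to 0.107).

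The gene that fell was Hif1a, the hypoxia factor related to Epas1 (chromosome 12, 73901375 to 73947530). Its levels were 424, 495 and 425 CPM in KO females and 282, 382 and 319 CPM in KO males, against 634, 527 and 729 CPM in WT females and 460, 516 and 630 CPM in WT males. KO female 2 overlapped WT male 1, and the groups were otherwise apart. Hif1a fell by 0.60 on the log2 scale (SE 0.12, adjusted p = 0.0312 by edgeR). The log2 fold change without the 4 libraries was -0.68 (adjusted p = 0.0722), and it was not called with the WT male 2 titles summed (0.0708) or without KO female 1 or 3, KO male 1 or 3, WT female 1 or 3, or WT male 2 or 3 (0.0504 to 0.102). Hif1a thus passed where Epas1 had a log2 fold change of -0.10, and the difference between the 2 genes was not tested.

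For the list counts that follow, 15.9% of all genes had an unadjusted p under 0.05 by edgeR averaged over the sexes, and DESeq2 called 644 of 13692. By list, 7 of 23 tested effector Treg genes were positive and none passed with edgeR, 6 had an unadjusted p under 0.05 and DESeq2 called 1, with a median of -0.24 against 0.02 over all genes. Its 2 genes with the smallest p were the adhesion receptor gene Cd44, with 127 ± 15.9 CPM in KO and 176 ± 28.7 CPM in WT (log2 fold change -0.47, SE 0.12, adjusted p = 0.0575), and Ikzf3, with 159 ± 14.9 CPM in KO and 202 ± 29.3 CPM in WT (-0.35, SE 0.12, adjusted p = 0.149). Each KO-labelled library lay below each WT-labelled library in both, as in 1.43% of all genes. Cd44 passed with DESeq2 (adjusted p = 0.0115) and without the filter on low counts (0.0315), and without KO female 2 (0.0352). It did not pass in the other fits that left out a library, where its adjusted p by edgeR reached 0.1775.

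The 14 genes linked to Blimp-1, Bcl6 among them, had a median of 0.14 with 9 positive, none passing with edgeR, 4 at an unadjusted p under 0.05, 2 called by DESeq2 and 1 by limma. Klf2, a factor of resting T cells, had 305 ± 35.4 CPM in KO and 210 ± 39.1 CPM in WT (0.54, SE 0.13, adjusted p = 0.0501), and passed with DESeq2 (0.00341), with limma on the deposited log2 values (0.0484), with DESeq2 size factors (0.0486), without the filter (0.0104), and without KO female 2 (0.0433) or KO male 2 (0.0260). Klf2 did not pass in the other fits that left out a library, where its adjusted p by edgeR reached 0.149. Of the 18 antagonists and partners of Bcl6 and Prdm1, 12 were positive with a median of 0.17. With edgeR 1 passed (Lef1), and with DESeq2 and with limma 2 passed (Lef1 and Klf2).

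The follicular list had 17 tested genes, 11 of them positive, a median of 0.09 and 1 passing gene with edgeR and with limma (Lef1), against 3 with DESeq2 (Lef1, Il6ra and Pou2af1). The type 1 list had 16 tested genes, 8 positive, a median of -0.03, none passing with edgeR, 4 at an unadjusted p under 0.05 and 1 called by DESeq2. Il18r1, which encodes an interleukin 18 receptor chain, had 47.7 ± 3.77 CPM in KO and 63.1 ± 6.39 CPM in WT (-0.40, SE 0.11, adjusted p = 0.0872, and 0.0274 with DESeq2), and the chemokine gene Ccl5 had 11.5 ± 4.45 CPM in KO and 6.04 ± 3.83 CPM in WT (1.00, SE 0.35, adjusted p = 0.171, and 0.0190 without the filter). The type 2 list had 13 tested genes, 6 positive, a median of -0.06, none passing with edgeR or DESeq2 and 1 at an unadjusted p under 0.05, with Il17rb at 0.84 (SE 0.39, adjusted p = 0.308) and Ccr4 at -0.26 (SE 0.14, adjusted p = 0.403).

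In the next 3 lists no gene passed with edgeR or DESeq2, and edgeR gave 1, 0 and 0 genes an unadjusted p under 0.05. Of 12 tested AP-1 and IRF partners of Batf 9 were positive, with a median of 0.15, and the repressor Bach2 was at 0.30 (SE 0.12, adjusted p = 0.224) and Irf8 at 0.25 (SE 0.15, adjusted p = 0.447). The 4 tested Maf family genes had a median of 0.04, with Maff at -0.52 (SE 0.46, adjusted p = 0.622) and Mafk at 0.06 (SE 0.17, adjusted p = 0.900). The 4 tested T-box and GATA relatives, Zfpm1 among them as a cofactor of GATA proteins, had a median of 0.19, with Tbx6 at 0.57 (SE 0.27, adjusted p = 0.319) and Zfpm1 at 0.42 (SE 0.21, adjusted p = 0.357). The 16 hypoxia genes had a median of -0.05 with 6 positive, and Hif1a was the 1 that passed.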

How the data were processed

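RNA-seq was done on sorted Tregs in 12 libraries, 3 in each of 4 groups taken from the sample titles. Per the labels' protocols, the kits were Nextera XT for libraries and, for cDNA, SMART-Seq v4, and neither marks strand. The authors deposited raw counts per gene symbol, and log2 CPM for the 24584 genes with a count. The build was GRCm38, and featureCounts 1.5.0-p2 from Subread, HISAT2 2.0.5 and edgeR were used, per the submitters' processing notes. No source used here gives their annotation or counting options. The deposited log2 values matched edgeR's log2 CPM with trimmed mean of M values (TMM) scaling and a prior count of 0.25 to within 5e-14.

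The counts were tested with edgeR 4.0.16 (R 4.3.3): filterByExpr, which left 13692 genes, TMM, and 1 robust quasi-likelihood fit of 4 group means to all 12 libraries. Tests were two-sided with Benjamini-Hochberg adjustment over all genes tested and a threshold of 0.05. SE were derived from the F statistic. A list count under DESeq2 or limma was added after seeing the data. DESeq2 1.42.0 and limma 3.58.1 served in alternatives. Permutation tests used 100000 resamples (scipy 1.17.1). The steps were tested on simulated counts. CPM use TMM-scaled library sizes, and precision for low genes is limited by counts, as for Eomes and Epas1. A label number 2 stands on 2 titles of WT male, whose libraries, called 2 and 3 here, differed beyond sampling noise (chi-square per gene of 38.0, against 9.95 to 87.0 over pairs within groups).

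The members and lists were chosen with earlier results of these data known. Named genes were all members, passing list genes (up to 4 a list) or else the 2 with the smallest p, and the 3 genes most like each member. A list gene that this rule names is not reported here. Alternatives for list genes were chosen after seeing the data.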

Additional observations from a re-analysis of the deposited data

Results flagged for a closer look

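Over the 8 genes, the 6 KO-labelled and the 6 WT-labelled libraries were each examined for a library far from the rest, which makes 16 groups, and chance flags about 1 in 20. Epas1 in KO female 3, at 8.03 CPM, stood apart from the other 5 KO-labelled libraries, its gap to the next making up 0.862 of their range. Maf in WT male 2, at 89.4 CPM, stood apart from the other 5 WT-labelled libraries, with a gap of 0.714 of the range.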

How the results depend on the processing

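The number of genes called depended on the processing far more than the members' values did. Averaged over the sexes, 206 genes were called between KO and WT, against 627 without the filter, 644 with DESeq2 (340 higher and 304 lower, against 83 and 123), 9 with the title number as a replicate block, 14 without the 4 libraries against their titled sex and 31 with both libraries titled WT male 2 summed. Prdm1 was not called in those last 3 (adjusted p = 0.116, 0.0678 and 0.0868), nor were Lef1 and Hif1a, which left 0 members called. Leaving out a library gave 12 to 543 genes and 0 to 1 members. In females 0 genes became 132 without the filter and 22 with DESeq2, in males 10 became 443 and 420, and no filter added 1 member in each, Prdm1 (adjusted p = 0.0222 and 0.0213). In males the count was 0 with the replicate block, 135 without the 4 libraries and 0 with the sum. For female minus male it was 63 in KO and 191 in WT without the filter, 30 in WT with DESeq2, and 5 in each without the 4 libraries, and for the interaction 106 without the filter and 3 with DESeq2. Left-out libraries gave 0 to 2 genes in females, 0 to 734 in males, 0 to 324 and 0 to 38 for female minus male in KO and WT, and 0 to 4 for the interaction. The cause was not tested. Without the 4 libraries, KO male is 1 library, assumed to vary like the other groups. Every KO-labelled library left in that fit had Esr2 at 8.05 CPM or more.

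Of 203 refits of 29 member fold changes other than left-out libraries, 193 kept sign and side of the threshold, as did 330 of 348 with a library left out. Signs turned for Eomes averaged (-0.15 with limma on deposited values, -0.95 without the 4 libraries), for Epas1 in males (-0.03 with the replicate block, -0.01 without the 4) and for Maf in males (0.04 without the 4). The list genes Mafk and Zfpm1 turned to -0.12 and -0.01 without the 4. With left-out libraries the ranges were -0.22 to 0.35 for Eomes, -0.02 to 0.16 for Tbx21 (below 0 without KO female 3, KO male 2 or WT female 3), -0.29 to 0.03 for Epas1 and -0.11 to 0.16 for Mafk averaged, -0.41 to 0.15 for Bcl6 in females, and -0.54 to 0.13 for Maf, -0.79 to 0.35 for Eomes and -0.14 to 0.33 for Epas1 in males. No pair of members passed under any of the 3 alternatives run. By correlation of deviations from group means, the title numbers showed no pairing: 0 of 18 same-numbered pairs were above 0.1 (-0.266 to 0.0922). With 3 libraries a group and 4 libraries against their titled sex, this cannot exclude a pairing.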

Other observations

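The ratio of Prdm1 to Bcl6, 2 factors known to repress each other, was set out by library. It is made of the same Prdm1 and Bcl6 levels compared above, so it is no separate evidence. The ratio of CPM was 2.40, 5.11 and 1.74 in KO females and 2.99, 1.95 and 1.43 in KO males, against 3.54, 3.29 and 5.80 in WT females and 4.12, 6.22 and 5.08 in WT males. It averaged 2.60 ± 1.34 in KO-labelled and 4.68 ± 1.21 in WT-labelled libraries (SD, n = 6 each), and KO female 2, the library with the lowest Bcl6, lay among the WT-labelled values. The ratio was chosen after its values were seen and was not tested.

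WT female 3 was highest of all 12 for Gata3, Prdm1 and Epas1, and KO female 3 was highest for Tbx21, Bcl6 and Eomes and lowest for Gata3. KO male 3 was lowest for Prdm1 and Eomes. The highest Batf was in WT male 1 and the highest Maf in WT male 2, and the lowest Tbx21, Bcl6, Batf, Maf and Epas1 lay in KO male 1, KO female 2, WT female 2, KO male 2 and WT male 1. The fold from lowest to highest library was 7.60 for Eomes, 4.17 for Maf and 3.52 for Prdm1, against 1.66 for Gata3 and 1.78 for Batf.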
